A study of Mus musculus with 12 samples.

Results

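The genes described here are those of cholesterol and fatty acid synthesis, measured in sorted mouse hepatocytes with an activated YAP coactivator and floxed alleles of the transcription factor gene Sox9. They were chosen by symbol from a list of 35 genes, and 32 of these were found among the 16116 genes of the deposited table. Of the 32, 17 belong to the sterol branch and 15 to the fatty acid branch. Idi1, Fdps and Acat2 were not analysed here. All 32 genes passed the filter on low values, a log2 value of 1 or more in 2 or more libraries, as did 10681 genes in all. The rule uses no measured value, but the genes were chosen with earlier results of these data known.

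The table held 12 libraries, 2 for each of 6 groups. In the YAP experiment, the Sox9-null YAP group (Sox9 fl/fl) and the Sox9-heterozygous YAP group (Sox9 fl/+) received AAV2/8-TBG-Cre together with AAV2/8-TBG-YAP S127A-P2A-GFP, and the wild type control received AAV2/8-TBG-GFP. YAP S127A is a mutant that the Hippo kinases cannot inhibit in the usual way, and TBG is a promoter used for expression in hepatocytes. In the Mst experiment, the Sox9-null Mst group (Sox9 fl/fl) and the Sox9-heterozygous Mst group (Sox9 fl/+) received AAV2/8-TBG-Cre. The floxed control of that experiment received AAV2/8-TBG-GFP. All 3 groups of it carried Mst1 fl/fl and Mst2 fl/fl, together with the Cre reporter ROSA26-lsl-TdTomato. Mst1 and Mst2, with the gene symbols Stk4 and Stk3, encode the upstream Hippo kinases. Virus was given at 3 weeks of age, and GFP+ or TdTomato+ cells without Epcam and CD45 were sorted 3 weeks later in the YAP experiment and 4 weeks later in the Mst experiment. Neither control received Cre, so Cre, the loss of Sox9 alleles and the activation of YAP came together in every activated group and cannot be told apart in the comparisons with the controls. No activated group with 2 intact Sox9 alleles was analysed here. Whether both libraries of a group are from different animals is not stated, so p-values here measure a spread that may be technical.

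Cells build cholesterol from acetyl-CoA through the mevalonate pathway, by way of squalene and lanosterol, and build fatty acids from malonyl-CoA by way of fatty acid synthase. The transcription factors SREBP-2 (gene Srebf2) and SREBP-1 (gene Srebf1) drive the sterol and the fatty acid branch, and the INSIG proteins hold their precursors in the endoplasmic reticulum when sterols are plentiful. The liver is a main site of both pathways, and its fatty acid branch is known to follow feeding and insulin.

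SREBPs are weak activators alone and are known to act at many of these genes together with NF-Y, a factor that binds the sequence CCAAT, so the promoters were searched for that motif. Windows of 250 bases before the start of transcription were taken from RefSeq (GRCm38.p6) for 27 of the 32 genes. CCAAT stood on 1 or other strand in 23 of the 27 genes (85.2%), against 40.5% of the 8293 tested genes with such windows. It stood in 14 of 14 sterol genes and in 9 of 13 fatty acid genes (69.2%). Genes with more than 1 window counted as holding the motif if any window did. The sterol response element TCACNCCAC was found in 1 gene, Hmgcs1 (3.7%, against 1.43% of all), the E-box CACGTG in 5 genes (18.5%, against 10%), and GGAATG, a motif of the TEAD factors through which YAP acts, in 3 genes (11.1%, against 12.4%). The 3 genes with GGAATG were Acss2, Gpam and Me1. Both strands were read for each motif, and a match describes letters and not a bound site. The 5 promoters below are a chosen set. Of these, 4 belong to genes higher with activation that held CCAAT, 2 sterol enzymes and 2 fatty acid genes. The last belongs to Hmgcs1, shown for its sterol element, and Hmgcs1 passed in no comparison. The 5 promoters are written 5′ to 3′ on the strand of the gene and end at the base before the start site. Capitals mark CCAAT, its reverse complement ATTGG and, in Hmgcs1, the sterol element. They come from chr8:122443423-122443672 (− strand, Mvd), chr10:76531355-76531604 (+ strand, Lss), chr11:120824548-120824797 (− strand, Fasn), chr15:84167566-84167815 (+ strand, Pnpla3) and chr13:119690101-119690350 (+ strand, Hmgcs1).
Mvd: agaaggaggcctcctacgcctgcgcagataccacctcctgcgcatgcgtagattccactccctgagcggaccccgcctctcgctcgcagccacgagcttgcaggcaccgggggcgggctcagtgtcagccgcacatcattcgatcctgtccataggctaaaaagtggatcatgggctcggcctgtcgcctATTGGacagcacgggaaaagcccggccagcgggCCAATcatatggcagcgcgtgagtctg
Lss: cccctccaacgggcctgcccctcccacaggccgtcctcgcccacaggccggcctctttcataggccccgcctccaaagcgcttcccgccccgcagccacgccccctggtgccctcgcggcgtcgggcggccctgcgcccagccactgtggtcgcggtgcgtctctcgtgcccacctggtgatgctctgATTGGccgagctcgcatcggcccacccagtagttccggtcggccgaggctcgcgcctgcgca
Fasn: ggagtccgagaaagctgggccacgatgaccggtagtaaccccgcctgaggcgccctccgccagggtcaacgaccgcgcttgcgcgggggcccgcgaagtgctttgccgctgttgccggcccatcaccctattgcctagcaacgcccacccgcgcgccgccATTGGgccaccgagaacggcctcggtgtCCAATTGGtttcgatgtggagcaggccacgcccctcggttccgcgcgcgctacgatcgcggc
Pnpla3: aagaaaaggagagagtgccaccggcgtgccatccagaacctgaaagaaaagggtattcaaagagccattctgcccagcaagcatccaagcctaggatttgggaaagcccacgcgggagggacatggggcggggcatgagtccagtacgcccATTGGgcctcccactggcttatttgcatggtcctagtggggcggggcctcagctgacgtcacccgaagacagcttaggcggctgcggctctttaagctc
Hmgcs1: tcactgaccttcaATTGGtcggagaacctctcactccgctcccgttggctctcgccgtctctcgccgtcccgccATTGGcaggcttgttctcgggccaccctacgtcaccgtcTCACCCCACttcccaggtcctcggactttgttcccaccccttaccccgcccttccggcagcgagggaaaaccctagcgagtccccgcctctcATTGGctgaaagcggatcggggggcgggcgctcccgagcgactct

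In Mvd the 2 matches began 60 and 27 bases before the start site, and in Lss the match began 62 bases before it. The Fasn window held 3 matches, 90, 62 and 59 bases from the start, the last pair overlapping on opposite strands. Pnpla3 held 1 match at 99 bases. Hmgcs1 held 3 CCAAT matches, at 237, 176 and 45 bases, with its sterol element at 137 bases. Of the 8 genes higher with activation, 6 had a window, and 4 of these 6 held CCAAT (66.7%), against the 85.2% over the list. These 4 were the printed Mvd, Lss, Fasn and Pnpla3. Acaca and Elovl6 had a window without CCAAT and are not printed.

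Levels below are the deposited log2 CPM values, where CPM stands for read counts scaled by library size, and a level is not compared between genes because the assay reads 1 amplicon per gene and not its length. Positions given with genes are those of the GENCODE annotation of GRCm38 and not the authors'. A log2 change is the difference of 2 group means, and the figure after ± is its standard error. Changes come from limma fitted to all 12 libraries, with Benjamini-Hochberg adjustment over 10681 genes, and a gene is called at an adjusted p under 0.05. Gene by gene, the means of the wild type and floxed controls were equal to within 0.05 for 30 of the 32 genes. This was so for 98.9% of all tested genes. The adjustment behind this is not stated, and the controls give no separate reading of the experiments. In the Mst experiment, the mean of the first libraries also equalled that of the second to within 0.05 for 99.9% of tested genes. In the YAP experiment this was so for 15.6%. The Mst libraries are thus tied to each other, which enters their SEs, p-values and left-out results. Within each group, distances from the mean had also been stretched or shrunk by 1 factor per gene (median 1.74 over the 32 genes), which enters every SE and p below. Linear values summed to 938683 to 1011693 CPM per library in the activated groups and to 879620 to 920020 CPM in the controls. Sox9 was at 2.28 and 2.62 log2 CPM in the Sox9-null YAP libraries and at 4.41 and 5.28 in the Sox9-heterozygous YAP libraries, against 3.90 and 3.59 in the wild type control. It was at 1.41 and 1.29 log2 CPM in the Sox9-null Mst libraries and at 6.47 and 6.0 in the Sox9-heterozygous Mst libraries, against 4.33 and 3.13 in the floxed control. Yap1 was higher in the Sox9-null YAP group than in the wild type control by a log2 change of 1.19 ± 0.24 (limma, adjusted p = 0.00556), and its change of 0.91 ± 0.24 in the Sox9-heterozygous YAP group did not pass (adjusted p = 0.0755). Stk4 was at 4.49 and 4.09 log2 CPM in the Sox9-null Mst libraries and at 4.25 and 4.74 in the Sox9-heterozygous Mst libraries, against 4.89 and 4.82 in the floxed control. Stk3 was at 3.98 and 4.45 log2 CPM in the Sox9-null Mst libraries and at 4.23 and 4.03 in the Sox9-heterozygous Mst libraries, against 4.04 and 3.78 in the floxed control. Stk4 and Stk3 were called in none of the comparisons, so they do not check the Mst labels; where the amplicons lie relative to the floxed parts is not known here.

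In the Sox9-null YAP group, several fatty acid genes stood higher than in the wild type control. None of the 7 late sterol genes passed, a set too small to set apart from all tested genes. The branches were not tested against each other. Of the 32 genes, 6 rose and none fell (limma, adjusted p under 0.05), which is 18.8% of the list, against 6.64% of all tested genes called higher and 0.477% called lower. The 6 were Fasn, Acaca, Me1, Elovl5, Pnpla3 and Mvd, so 5 of 15 fatty acid genes and 1 of 17 sterol genes. The sterol share is near the share of all tested genes called higher. Pnpla3 passed the filter on low values only through activated libraries. The median log2 change was 0.71 over the 32 genes, 0.95 over the fatty acid genes, 0.54 over the sterol genes and 0.21 over all genes tested. A change above 0 was seen in 28 of the 32 genes, against 69.2% of all genes. Libraries did not overlap for 20 genes on the higher side (40.5% of all tested genes) and 1, Thrsp, on the lower side (11.1%). With library medians equalised, which takes the median of all genes to -0.06, the members' median was 0.45, 22 changes were above 0 and Me1 and Pnpla3 were called. With quantile normalization the median was 0.51, 25 were above 0 and Fasn and Me1 were called. Without the first wild type library only Scd1 was called, without the second 3 genes (Acacb, Me1, Pnpla3), without the first Sox9-null YAP library 2 (Fasn, Me1) and without the second 0. Without either Sox9-heterozygous YAP library 9 were called, with Sqle, Fads1 and Fads2 added to the 6.

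The Sox9-heterozygous YAP group showed no called gene. None of the 32 genes passed in either direction, against 1.4% of all tested genes called higher and 0.169% called lower, and at an unadjusted p under 0.05 there were 0 higher and 1 lower (Thrsp). Libraries did not overlap for 4 genes on the higher side (21.6% of all tested genes) and 2 on the lower side (12.6%). The median log2 change was 0.08, against 0.07 over all genes, and it was -0.01 with library medians equalised and 0.05 with quantile normalization. The median turned to -0.08 without the first wild type library and to -0.11 without the first library of the group, and was 0.26 without the second library of either group. Without its own second library 1 gene, Elovl5, was called.

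In the Mst experiment few genes of the list were called. In the Sox9-null Mst group 1 gene fell, the sterol reductase Tm7sf2, and none rose (limma, adjusted p under 0.05), against 0.88% of all tested genes called lower and 6.88% called higher. The median log2 change was 0.00, against 0.17 over all genes, with 12 genes above their control without overlap (39.6% of all tested genes) and 7 below it (12.8%). In the Sox9-heterozygous Mst group 2 genes rose, Mvd and Elovl6, and none fell, against 3.45% called higher and 0.796% called lower over all genes. There the median log2 change was 0.18, against 0.08 over all genes, with 13 genes above the control without overlap (29.2% of all tested genes) and 4 below it (16.1%). The Sox9-null count was 0 without the first floxed control library or without either Sox9-null Mst library, 2 without the second floxed control library, and 4 without either Sox9-heterozygous YAP library, where Acaca, Fasn and Elovl6 passed too. The Sox9-heterozygous count was 0 without the first floxed control library and 1, Mvd, without either wild type library, the second floxed control library or the second Sox9-heterozygous Mst library.

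Over both experiments, activation was read as the mean of the 4 activated groups minus the mean of the 2 controls, from the same libraries as above. By this contrast 8 genes rose and none fell (limma, adjusted p under 0.05), which is 25.0% of the list, against 12.3% of all tested genes called higher and 1.49% called lower. They were Fasn, Acaca, Elovl6, Scd1 and Pnpla3 of the fatty acid branch and Mvd, Sqle and Lss of the sterol branch. The median log2 change was 0.37 over the fatty acid genes, 0.09 over the sterol genes and 0.13 over all genes tested. Over the 32 genes the median was 0.20 as deposited, and 0.02 with library medians equalised, against -0.05 over all genes there. Changes above 0 numbered 25 of 32 as deposited, 22 with quantile normalization and 16 with library medians equalised. With medians equalised the calls were Mvd, Acaca, Fasn and Pnpla3 higher and Tm7sf2 lower. Fasn, Mvd and Pnpla3 were called without any single library and under the other scalings, filters and models tried, except that the stricter filter removed Pnpla3. Pnpla3, at most 0.71 log2 CPM in the controls, passed the filter only through activated libraries, so its call is not independent of the filter. The count was 4 without either wild type library or the first floxed control library, and 5 without the second floxed control library or the second Sox9-null YAP library.

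**Figure D1:**
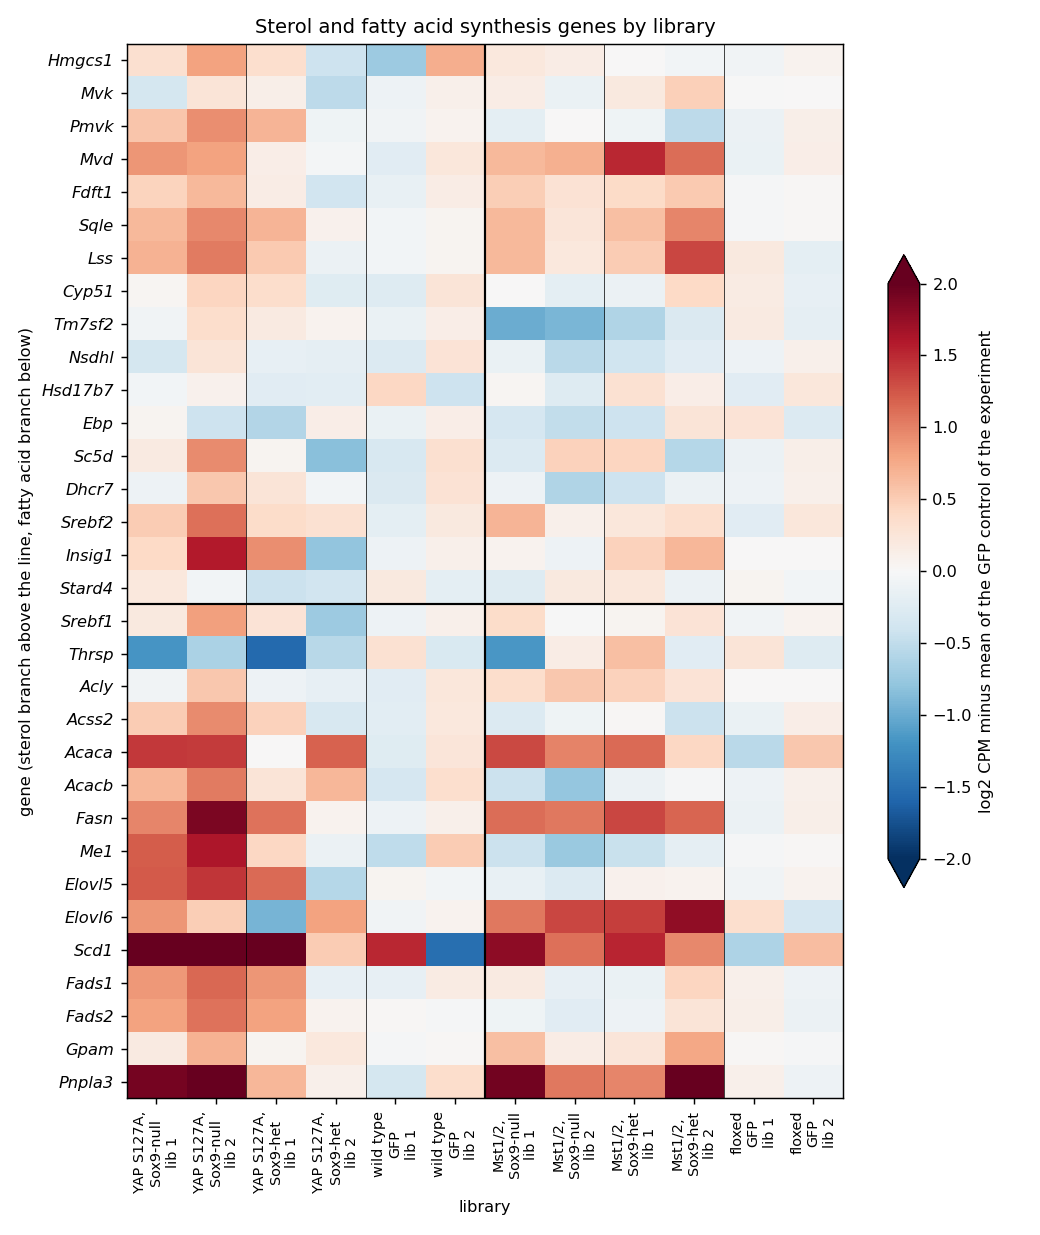
Log2 CPM of the 32 genes (rows, sterol branch above the line and fatty acid branch below it) in the 12 libraries (columns), each minus the mean of the GFP control of its experiment. Rows such as Fasn, Pnpla3, Mvd and Sqle are above control in most activated columns, the Tm7sf2 row is below control in the 4 activated Mst columns, and the 2 Sox9-null YAP columns have the highest medians, 0.48 and 0.88.

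Fasn (chr11:120805846-120824547, − strand) encodes fatty acid synthase, which makes palmitate. It stood at 9.31 and 10.21 log2 CPM in the Sox9-null YAP libraries and at 9.41 and 8.41 in the Sox9-heterozygous YAP libraries, against 8.23 and 8.43 in the wild type control. In Mst hepatocytes Fasn was at 9.45 and 9.39 log2 CPM with Sox9-null and at 9.67 and 9.50 with Sox9-heterozygous genotype, against 8.21 and 8.46 in the floxed control. All activated libraries but the second Sox9-heterozygous YAP library lay above every control. Fasn rose by a log2 change of 1.43 ± 0.35 in the Sox9-null YAP group (limma, adjusted p = 0.0203) and by 1.09 ± 0.21 over both experiments (adjusted p = 0.00239). Its log2 changes in the other groups did not pass, at 0.58 ± 0.35 in the Sox9-heterozygous YAP group (adjusted p = 0.619), 1.08 ± 0.35 in the Sox9-null Mst group (0.0741) and 1.25 ± 0.35 in the Sox9-heterozygous Mst group (0.0569). The Sox9-null YAP call was lost without the first (1.33) or second (1.53) wild type library and without the second Sox9-null YAP library (0.98).

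Acaca (chr11:84129672-84401651, + strand) and Acacb encode the 2 acetyl-CoA carboxylases, which make malonyl-CoA for synthesis and, at the mitochondrion, for the control of fatty acid oxidation. Acaca was at 6.73 and 6.71 log2 CPM in the Sox9-null YAP libraries and at 5.32 and 6.49 in the Sox9-heterozygous YAP libraries, against 5.07 and 5.56 in the wild type control. Among Mst libraries Acaca was at 6.62 and 6.30 log2 CPM with Sox9-null and at 6.43 and 5.71 with Sox9-heterozygous genotype, against 4.77 and 5.83 in the floxed control. All 4 Sox9-null libraries lay above every control, while 1 library of each Sox9-heterozygous group lay within the control range. Acaca rose by a log2 change of 1.41 ± 0.39 in the Sox9-null YAP group (limma, adjusted p = 0.0389) and by 0.98 ± 0.24 over both experiments (adjusted p = 0.0104). The change of 1.16 ± 0.39 in the Sox9-null Mst group did not pass (limma, adjusted p = 0.0865). The Sox9-null YAP call was lost without either wild type library (1.16, 1.65) or either Sox9-null YAP library (1.40, 1.42), and the call over both experiments without the first wild type library (0.86) or the first floxed control library (0.71).

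Acacb was at 6.79 and 7.16 log2 CPM in the Sox9-null YAP libraries and at 6.38 and 6.78 in the Sox9-heterozygous YAP libraries, against 5.78 and 6.46 in the wild type control. Acacb values in the Mst experiment were 5.73 and 5.39 log2 CPM with Sox9-null and 6.05 and 6.15 with Sox9-heterozygous genotype, against 6.06 and 6.28 in the floxed control. Both Sox9-null YAP libraries were thus above their control and both Sox9-null Mst libraries below theirs. Neither log2 change passed, at 0.86 ± 0.27 in the Sox9-null YAP group (limma, adjusted p = 0.0649) and -0.61 ± 0.27 in the Sox9-null Mst group (limma, adjusted p = 0.213).

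Me1 (chr9:86581371-86695953, − strand), the cytosolic malic enzyme that supplies NADPH for fatty acid synthesis, showed the same pair of directions. It was at 8.28 and 8.69 log2 CPM in the Sox9-null YAP libraries and at 7.49 and 6.97 in the Sox9-heterozygous YAP libraries, against 6.58 and 7.58 in the wild type control. For Me1 in the Mst experiment the values were 6.66 and 6.34 log2 CPM with Sox9-null and 6.64 and 6.91 with Sox9-heterozygous genotype, against 7.07 and 7.10 in the floxed control. The Sox9-null YAP libraries were the highest of the 12, and all 4 activated Mst libraries lay below both floxed controls. Me1 rose by a log2 change of 1.41 ± 0.31 in the Sox9-null YAP group (limma, adjusted p = 0.00985), and the change of -0.58 ± 0.31 in the Sox9-null Mst group did not pass (adjusted p = 0.324). The rise missed the threshold without the first wild type library (0.91) or the second Sox9-null YAP library (1.20). Of the other suppliers, Acly, the ATP citrate lyase, and Acss2, an acetyl-CoA synthetase, passed in no comparison, with log2 changes in the Sox9-null YAP group of 0.23 ± 0.26 and 0.73 ± 0.29 (adjusted p = 0.683 and 0.157).

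**Figure D2:**
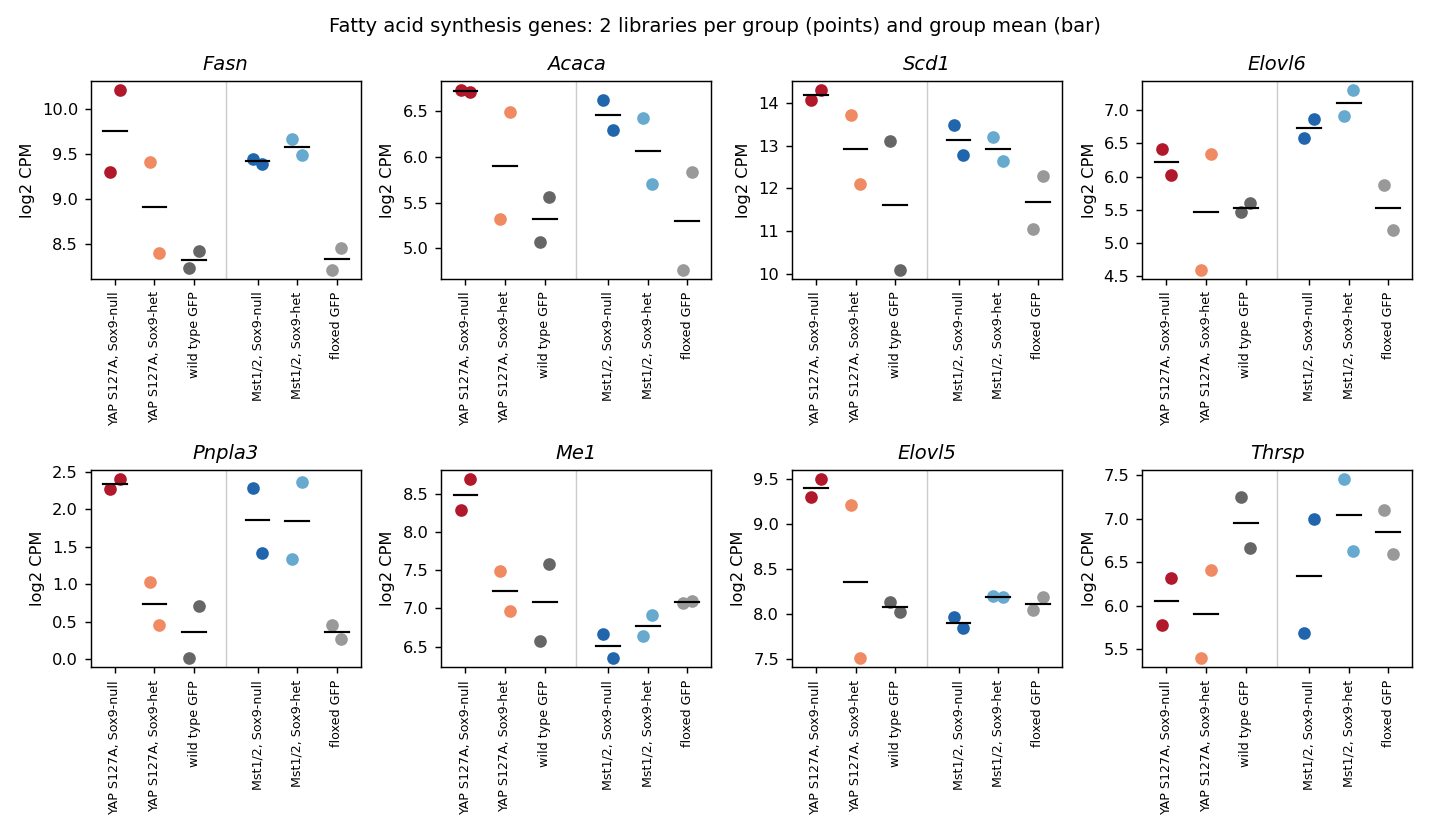
Log2 CPM of 8 fatty acid genes in each library of the 6 groups. Points are the 2 libraries of a group and the bar is their mean. The Sox9-null YAP points of Me1 (8.28, 8.69) and Elovl5 (9.31, 9.51) lie above those of the wild type control, and the wild type points of Scd1 (13.12, 10.11) are far apart.

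Elongases and desaturases turn palmitate into longer and unsaturated chains. Elovl6 (chr3:129532355-129638495, + strand), the elongase of saturated and monounsaturated C16 chains, was at 6.41 and 6.03 log2 CPM in the Sox9-null YAP libraries and at 4.59 and 6.34 in the Sox9-heterozygous YAP libraries, against 5.47 and 5.59 in the wild type control. With Mst1 and Mst2 floxed, Elovl6 was at 6.58 and 6.87 log2 CPM with Sox9-null and at 6.91 and 7.30 with Sox9-heterozygous genotype, against 5.87 and 5.19 in the floxed control. The 4 activated Mst libraries were the highest of the 12, and the Sox9-heterozygous YAP libraries fell on both sides of the controls. Elovl6 rose by a log2 change of 1.58 ± 0.41 in the Sox9-heterozygous Mst group (limma, adjusted p = 0.0392) and by 0.85 ± 0.25 over both experiments (adjusted p = 0.0325). Its change of 1.20 ± 0.41 in the Sox9-null Mst group did not pass (adjusted p = 0.0945). The Sox9-heterozygous Mst call was lost without any 1 library of that group (1.77, 1.38) or of the floxed control (1.91, 1.24), and also without any 1 library of the wild type control or of the Sox9-null YAP group, which leaves the change at 1.58. The call over both experiments was lost without either wild type library (0.82, 0.88), either Sox9-null YAP library (0.80, 0.90), the second floxed control library (0.68) or the second Sox9-heterozygous Mst library (0.80).

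Elovl5 (chr9:77917364-77984519, + strand) elongates polyunsaturated chains. It was at 9.31 and 9.51 log2 CPM in the Sox9-null YAP libraries and at 9.21 and 7.51 in the Sox9-heterozygous YAP libraries, against 8.14 and 8.03 in the wild type control. Mst values of Elovl5 were 7.97 and 7.84 log2 CPM with Sox9-null and 8.21 and 8.19 with Sox9-heterozygous genotype, against 8.05 and 8.19 in the floxed control. The first Sox9-heterozygous YAP library sat with the Sox9-null YAP libraries, and the second was the lowest of the 12. Elovl5 rose by a log2 change of 1.32 ± 0.38 in the Sox9-null YAP group (limma, adjusted p = 0.048), a call lost without either wild type library (1.38, 1.27), either Sox9-null YAP library (1.42, 1.22) or, with the same change, either floxed control library. The desaturases Fads1 and Fads2 gave log2 changes of 1.01 ± 0.33 and 0.95 ± 0.28 in that group that did not pass (adjusted p = 0.0848 and 0.057), and 0.00 and -0.16 in the Sox9-null Mst group.

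Scd1 (chr19:44394455-44407879, − strand), the stearoyl-CoA desaturase, had the widest spread of the list. It was at 14.06 and 14.29 log2 CPM in the Sox9-null YAP libraries and at 13.72 and 12.11 in the Sox9-heterozygous YAP libraries, against 13.12 and 10.11 in the wild type control. In Mst hepatocytes Scd1 was at 13.47 and 12.78 log2 CPM with Sox9-null and at 13.20 and 12.64 with Sox9-heterozygous genotype, against 11.05 and 12.30 in the floxed control. Both activated Mst groups lay above their control without overlap, and the first wild type library lay among the activated ones. The log2 change was 2.56 ± 0.82 in the Sox9-null YAP group (limma, adjusted p = 0.0732), 4.07 without the first wild type library (adjusted p = 0.00951) and 1.06 without the second. Scd1 rose by a log2 change of 1.64 ± 0.50 over both experiments (adjusted p = 0.0385). That call was lost without the second wild type library (0.89), the first floxed control library (1.33), the first Sox9-heterozygous YAP library (1.44), either Sox9-null YAP library (1.67, 1.61), the first Sox9-heterozygous Mst library (1.57) or the first Sox9-null Mst library (1.56). Mouse Scd genes are close copies, so reads shared between them are uncertain.

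Pnpla3 (chr15:84167837-84187236, + strand), a lipid droplet protein whose transcript is known to follow SREBP-1 and ChREBP, was low in all libraries. It passed the filter on low values through activated libraries alone, since every control was under a log2 of 1. It was at 2.27 and 2.41 log2 CPM in the Sox9-null YAP libraries and at 1.02 and 0.46 in the Sox9-heterozygous YAP libraries, against 0.01 and 0.71 in the wild type control. Among Mst libraries Pnpla3 was at 2.29 and 1.42 log2 CPM with Sox9-null and at 1.33 and 2.37 with Sox9-heterozygous genotype, against 0.45 and 0.27 in the floxed control. Every activated library but the second Sox9-heterozygous YAP library was above every control. Pnpla3 rose by a log2 change of 1.98 ± 0.47 in the Sox9-null YAP group (limma, adjusted p = 0.0168) and by 1.34 ± 0.29 over both experiments (adjusted p = 0.00454), while 1.50 ± 0.47 in the Sox9-null Mst group and 1.49 ± 0.47 in the Sox9-heterozygous Mst group did not pass (0.0655 and 0.0959). The Sox9-null YAP call was lost without the first wild type library (1.63) or either Sox9-null YAP library (2.05, 1.91). Gpam, which makes the first step of glycerolipid synthesis, had all 8 activated libraries (7.95 to 8.67 log2 CPM) above all 4 controls (7.87 to 7.93). That was so for 2 of the 32 genes, Gpam and Sqle, against 6.6% of all tested genes, and 0 genes lay below all controls (0.59%). The log2 change of Gpam, 0.37 ± 0.16 over both experiments, did not pass (limma, adjusted p = 0.166).

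The transcripts of the 2 fatty acid regulators showed no change that passed. Srebf1 was at 7.75 and 8.38 log2 CPM in the Sox9-null YAP libraries and at 7.82 and 6.83 in the Sox9-heterozygous YAP libraries, against 7.44 and 7.65 in the wild type control. Mst values of Srebf1 were 7.92 and 7.55 log2 CPM with Sox9-null and 7.60 and 7.83 with Sox9-heterozygous genotype, against 7.48 and 7.63 in the floxed control. The groups overlapped in each comparison but that of the Sox9-null YAP group, whose log2 change of 0.51 ± 0.31 did not pass (limma, adjusted p = 0.378). The amplicon does not separate the SREBP-1a and SREBP-1c transcripts in these values. Thrsp, a small protein known to promote lipogenesis, was at 5.78 and 6.32 log2 CPM in the Sox9-null YAP libraries and at 5.40 and 6.41 in the Sox9-heterozygous YAP libraries, against 7.26 and 6.66 in the wild type control. For Thrsp the Mst values were 5.69 and 7.0 log2 CPM with Sox9-null and 7.46 and 6.63 with Sox9-heterozygous genotype, against 7.11 and 6.60 in the floxed control. All 4 YAP libraries were below both wild type libraries, with log2 changes of -0.90 ± 0.43 and -1.05 ± 0.43 that did not pass (limma, adjusted p = 0.24 and 0.355), and the Mst groups overlapped their control.

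Of the 4 genes of the mevalonate steps, Mvd was the one that passed in any comparison. Mvd (chr8:122433601-122443422, − strand), mevalonate diphosphate decarboxylase, was at 5.63 and 5.55 log2 CPM in the Sox9-null YAP libraries and at 4.88 and 4.70 in the Sox9-heterozygous YAP libraries, against 4.52 and 4.96 in the wild type control. In Mst hepatocytes Mvd was at 5.36 and 5.43 log2 CPM with Sox9-null and at 6.22 and 5.83 with Sox9-heterozygous genotype, against 4.58 and 4.85 in the floxed control. The Sox9-heterozygous YAP libraries lay within the wild type range and the other 6 activated libraries above every control, the Sox9-heterozygous Mst libraries highest. Mvd rose by a log2 change of 0.85 ± 0.24 in the Sox9-null YAP group (limma, adjusted p = 0.044), by 1.31 ± 0.24 in the Sox9-heterozygous Mst group (limma, adjusted p = 0.0043) and by 0.72 ± 0.15 over both experiments (adjusted p = 0.00325). The change of 0.68 ± 0.24 in the Sox9-null Mst group did not pass (adjusted p = 0.11). Its Sox9-null YAP call was lost without either wild type library (0.63, 1.07), either Sox9-null YAP library (0.81, 0.89) or, with the same change, either floxed control or Sox9-null Mst library, and the Sox9-heterozygous Mst call without the first floxed control library (1.17).

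Hmgcs1, the cytosolic HMG-CoA synthase, was at 9.58 and 10.06 log2 CPM in the Sox9-null YAP libraries and at 9.60 and 8.84 in the Sox9-heterozygous YAP libraries, against 8.53 and 9.98 in the wild type control. For Hmgcs1 in the Mst experiment the values were 9.46 and 9.39 log2 CPM with Sox9-null and 9.25 and 9.18 with Sox9-heterozygous genotype, against 9.18 and 9.32 in the floxed control. The 2 wild type libraries spanned nearly the whole range of the gene, and no log2 change passed, the furthest from 0 being 0.60 ± 0.40 between the Sox9-null and Sox9-heterozygous YAP groups (limma, adjusted p = 0.847). Pmvk, phosphomevalonate kinase, was at 6.33 and 6.71 log2 CPM in the Sox9-null YAP libraries and at 6.46 and 5.69 in the Sox9-heterozygous YAP libraries, against 5.72 and 5.84 in the wild type control. With Mst1 and Mst2 floxed, Pmvk was at 5.60 and 5.80 log2 CPM with Sox9-null and at 5.71 and 5.27 with Sox9-heterozygous genotype, against 5.68 and 5.90 in the floxed control. Both Sox9-null YAP libraries and 1 Sox9-heterozygous YAP library stood above all the rest, and the log2 change of 0.74 ± 0.27 in the Sox9-null YAP group did not pass (limma, adjusted p = 0.119). Mvk, mevalonate kinase, ranged over 4.21 to 5.21 log2 CPM in all libraries and passed in no comparison.

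Squalene and lanosterol are made by Fdft1, Sqle and Lss, and 2 of these 3 genes rose over both experiments. Sqle (chr15:59315077-59331192, + strand), squalene epoxidase, was at 8.09 and 8.40 log2 CPM in the Sox9-null YAP libraries and at 8.12 and 7.52 in the Sox9-heterozygous YAP libraries, against 7.39 and 7.50 in the wild type control. In Mst hepatocytes Sqle was at 8.09 and 7.68 log2 CPM with Sox9-null and at 8.04 and 8.42 with Sox9-heterozygous genotype, against 7.42 and 7.46 in the floxed control. All 8 activated libraries lay above all 4 controls, which was so for 6.6% of all tested genes. Sqle rose by a log2 change of 0.61 ± 0.16 over both experiments (limma, adjusted p = 0.0198), a call lost without any 1 of the 4 control libraries (0.58 and 0.63 for wild type, 0.60 and 0.61 for floxed) and with library medians equalised (0.43). In single groups its log2 changes did not pass, at 0.80 ± 0.26 in the Sox9-null YAP group and 0.79 ± 0.26 in the Sox9-heterozygous Mst group (limma, adjusted p = 0.0851 and 0.125).

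Lss (chr10:76531588-76557138, + strand), lanosterol synthase, was at 6.85 and 7.20 log2 CPM in the Sox9-null YAP libraries and at 6.69 and 6.04 in the Sox9-heterozygous YAP libraries, against 6.11 and 6.21 in the wild type control. For Lss in the Mst experiment the values were 6.82 and 6.37 log2 CPM with Sox9-null and 6.66 and 7.49 with Sox9-heterozygous genotype, against 6.36 and 5.96 in the floxed control. Of the activated libraries, 1, the second Sox9-heterozygous YAP library, lay below its controls. Lss rose by a log2 change of 0.60 ± 0.19 over both experiments (limma, adjusted p = 0.0404). The call was lost without either wild type library (0.58, 0.63), either floxed control library (0.70, 0.51), the first Sox9-heterozygous YAP library (0.52), the second Sox9-null YAP library (0.56), the second Sox9-heterozygous Mst library (0.50) or the first Sox9-null Mst library (0.55). Fdft1, squalene synthase, gave a log2 change of 0.32 ± 0.15 over both experiments that did not pass (limma, adjusted p = 0.179).

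**Figure D3:**
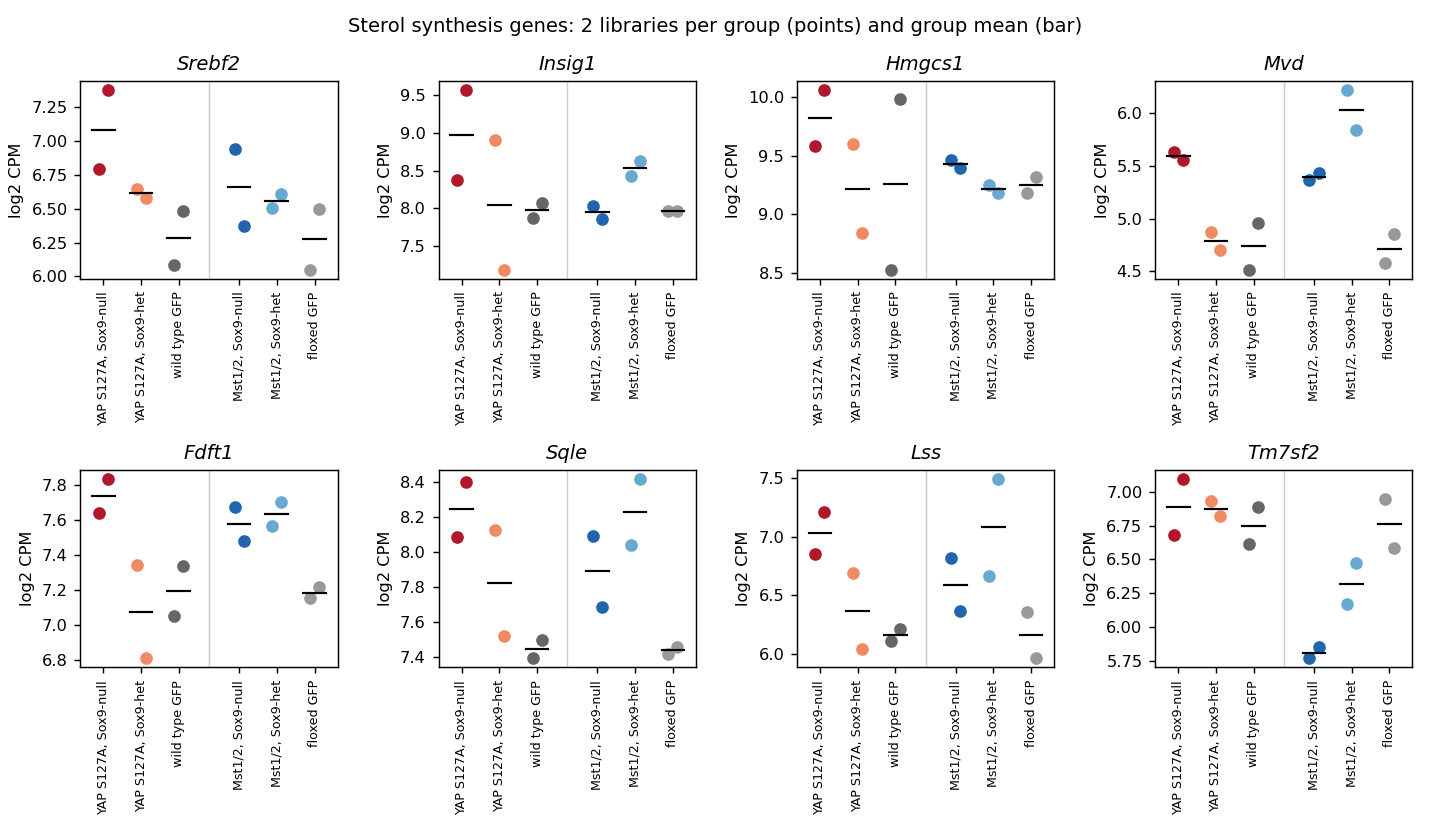
Log2 CPM of 8 sterol genes in each library of the 6 groups. Points are the 2 libraries of a group and the bar is their mean. The 8 activated points of Sqle (7.52 to 8.42) lie above its 4 control points (7.39 to 7.50), as in 6.6% of all tested genes. The activated Mst points of Tm7sf2 (5.77 to 6.47) lie below all its control points.

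The late sterol enzymes turn lanosterol into cholesterol, and they were not tested against the earlier steps. Their median log2 change was 0.14 in the Sox9-null YAP group, with a range over the 7 genes from -0.18 (Ebp) to 0.56 (Sc5d), and -0.08 over both experiments. Tm7sf2 (chr19:6062821-6068373, − strand), a sterol C14 reductase, was at 6.68 and 7.10 log2 CPM in the Sox9-null YAP libraries and at 6.93 and 6.82 in the Sox9-heterozygous YAP libraries, against 6.61 and 6.89 in the wild type control. Among Mst libraries Tm7sf2 was at 5.77 and 5.85 log2 CPM with Sox9-null and at 6.17 and 6.47 with Sox9-heterozygous genotype, against 6.94 and 6.58 in the floxed control. The YAP libraries and the wild type control overlapped, while all 4 activated Mst libraries lay below every other library. In the Sox9-null Mst group Tm7sf2 fell by 0.95 ± 0.24 on the log2 scale (limma, adjusted p = 0.02), and in the Sox9-heterozygous Mst group its log2 change of -0.44 ± 0.24 did not pass (adjusted p = 0.384). The fall missed the threshold without the first floxed control library (-0.77), the first (-0.91) or the second (-1.0) Sox9-null Mst library.

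Ebp, the sterol isomerase, was at 8.15 and 7.68 log2 CPM in the Sox9-null YAP libraries and at 7.50 and 8.22 in the Sox9-heterozygous YAP libraries, against 7.95 and 8.23 in the wild type control. Ebp values in the Mst experiment were 7.77 and 7.61 log2 CPM with Sox9-null and 7.69 and 8.37 with Sox9-heterozygous genotype, against 8.37 and 7.84 in the floxed control. The groups overlapped, except that both Sox9-null Mst libraries were below the floxed control, with a log2 change of -0.41 ± 0.31 that did not pass (limma, adjusted p = 0.535). Cyp51, Nsdhl, Hsd17b7, Sc5d and Dhcr7 passed in no comparison. Dhcr7, which makes the last step to cholesterol by 1 of its 2 routes, gave log2 changes of 0.22 ± 0.29 in the Sox9-null YAP group and -0.36 ± 0.29 in the Sox9-null Mst group (limma, adjusted p = 0.74 and 0.571).

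Among the sterol regulators, Srebf2 was at 6.79 and 7.38 log2 CPM in the Sox9-null YAP libraries and at 6.65 and 6.58 in the Sox9-heterozygous YAP libraries, against 6.08 and 6.48 in the wild type control. In Mst hepatocytes Srebf2 was at 6.95 and 6.38 log2 CPM with Sox9-null and at 6.50 and 6.61 with Sox9-heterozygous genotype, against 6.05 and 6.50 in the floxed control. All activated libraries but the second Sox9-null Mst library were above every control, some by little. The log2 changes did not pass, at 0.80 ± 0.27 in the Sox9-null YAP group (limma, adjusted p = 0.0918) and 0.45 ± 0.17 over both experiments (adjusted p = 0.0888).

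Insig1, which retains SREBPs in the endoplasmic reticulum and is itself a target of theirs, was at 8.37 and 9.56 log2 CPM in the Sox9-null YAP libraries and at 8.91 and 7.19 in the Sox9-heterozygous YAP libraries, against 7.87 and 8.08 in the wild type control. Mst values of Insig1 were 8.03 and 7.87 log2 CPM with Sox9-null and 8.43 and 8.63 with Sox9-heterozygous genotype, against 7.97 in both floxed control libraries. The 2 Sox9-heterozygous YAP libraries lay on opposite sides of the controls, the second being the lowest of the 12. Its log2 change of 0.99 ± 0.44 in the Sox9-null YAP group did not pass (limma, adjusted p = 0.206). Stard4, a carrier of cholesterol within the cell, was at 7.35 and 7.09 log2 CPM in the Sox9-null YAP libraries and at 6.72 and 6.76 in the Sox9-heterozygous YAP libraries, against 7.34 and 6.94 in the wild type control. With Mst1 and Mst2 floxed, Stard4 was at 6.88 and 7.33 log2 CPM with Sox9-null and at 7.37 and 7.02 with Sox9-heterozygous genotype, against 7.19 and 7.08 in the floxed control. The Sox9-heterozygous YAP libraries were the lowest of the 12, with a log2 change of -0.40 ± 0.24 that did not pass (limma, adjusted p = 0.632).

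**Figure D4:**
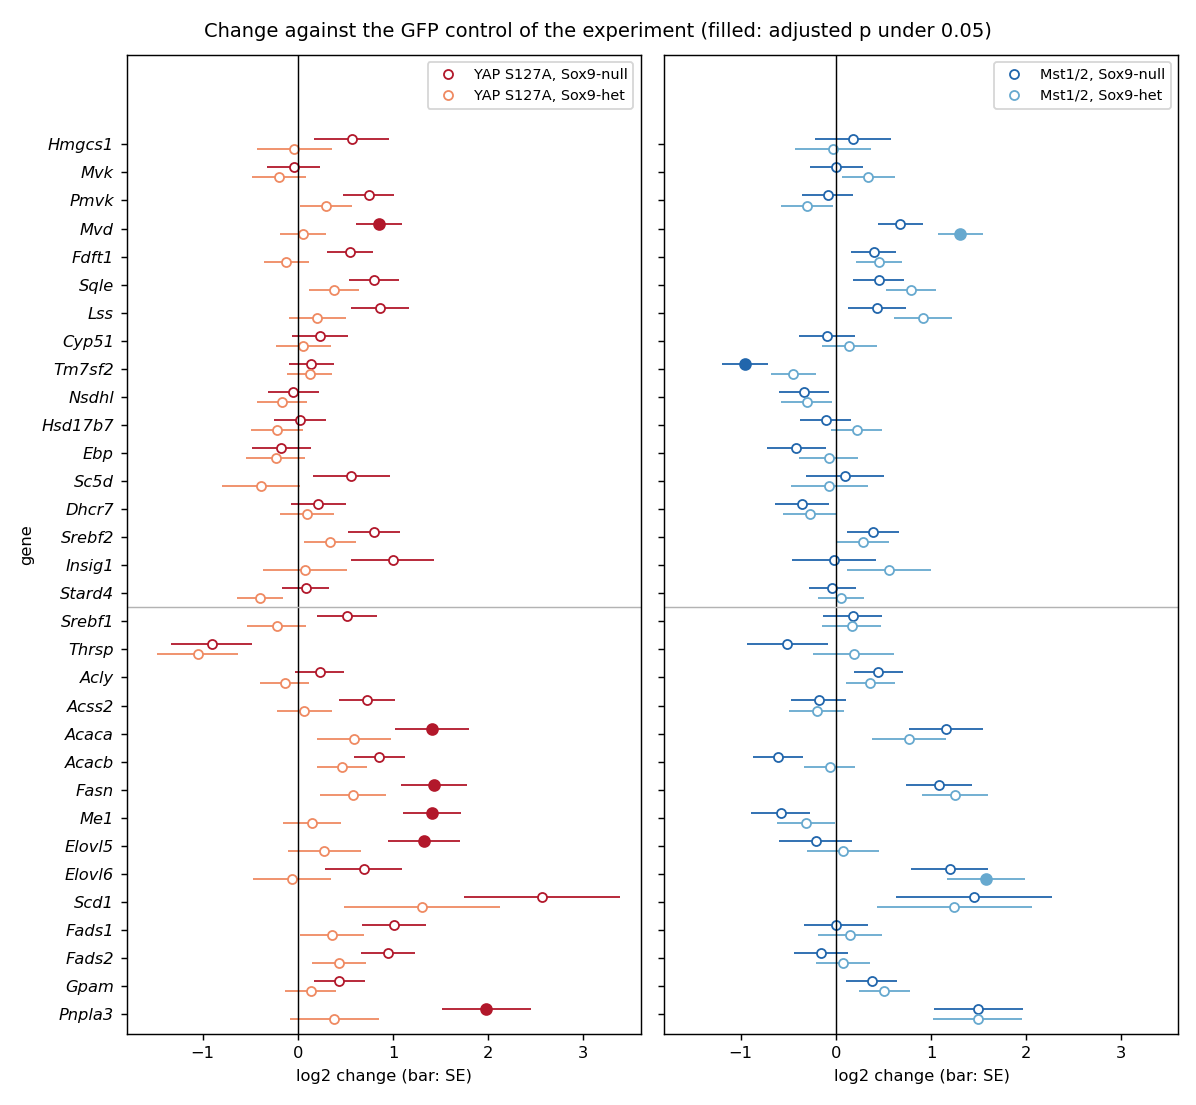
Log2 change of each of the 32 genes in the Sox9-null and the Sox9-heterozygous group against the GFP control, YAP experiment in the left panel and Mst experiment in the right. Bars are standard errors from limma and filled points have an adjusted p under 0.05. Filled points number 6 for the Sox9-null YAP group, 1 for the Sox9-null Mst group and 2 for the Sox9-heterozygous Mst group.

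The second Sox9 allele was tested by setting each Sox9-null group against the Sox9-heterozygous group with the same activation. No gene of the list passed in the YAP experiment (0.112% of all tested genes were called higher and 0.0562% lower), nor in the Mst experiment (0.0187% and 0.0281%), nor over the 8 libraries of both (0.0936% and 0.0374%). At an unadjusted p under 0.05, 10 genes of the list were higher in the Sox9-null YAP group (621 of all 10681 tested genes), 2 were lower in the Sox9-null Mst group (63 of all) and 3 were higher over both experiments (942 of all). In the YAP experiment all 32 log2 changes were above 0 as deposited, 26 with library medians equalised and 28 with quantile normalization, where 7500 of the 10681 tested genes were above 0 as deposited. The median was 0.56 over the list and 0.15 over all genes. Libraries of 16 genes did not overlap and were higher with Sox9-null genotype, which was so for 23.1% of all tested genes, and for 0 genes they were lower (5.12%). The furthest from 0 were Pnpla3 at 1.60 ± 0.47 and Me1 and Scd1 at 1.26 ± 0.31 and 1.26 ± 0.82 (limma, adjusted p = 0.322, 0.205 and 0.846), and Mvd stood at 0.80 ± 0.24 (adjusted p = 0.356). Single libraries moved this: the median was 0.34 without the second Sox9-heterozygous YAP library, 0.37 without the second and 0.72 without the first Sox9-null YAP library, and 0.77 without the first Sox9-heterozygous YAP library, where 2 genes, Insig1 and Elovl5, were called.

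In the Mst experiment most changes ran the other way, and none passed. Of the 32 log2 changes between the Sox9-null and the Sox9-heterozygous Mst group, 22 were below 0, with a median of -0.16, against 0.09 over all genes. That median was -0.31 without the first Sox9-null Mst library, -0.28 without the first Sox9-heterozygous Mst library and -0.07 without the second. Libraries did not overlap for 9 genes on the lower side (7.72% of all tested genes) and for 1 on the higher side (22.8%). Mvd stood at -0.63 ± 0.24 and Tm7sf2 at -0.51 ± 0.24 (limma, adjusted p = 0.735 and 0.837), while Pnpla3 was at 0.01 ± 0.47. The difference between the experiments, Mst minus YAP, was below 0 for all 32 genes, with a median of -0.72, against -0.05 over all genes, of which 5947 of 10681 were below 0. All 32 were below 0 also with library medians equalised (median -0.69) and with quantile normalization (-0.66). No gene of the list passed this test, and over all tested genes 0% did, with 7 genes of the list and 177 of all 10681 lower at an unadjusted p under 0.05. These were Mvd at -1.43 ± 0.34 (limma, unadjusted p = 0.000733, adjusted p = 0.522) and Me1, Pnpla3, Insig1, Elovl5, Lss and Acacb at log2 differences of -1.53, -1.60, -1.50, -1.34, -1.15 and -0.94 (adjusted p = 1 for each). Without the second Sox9-heterozygous YAP library the median was -0.46 and 1 gene was above 0, and without the first 1 gene was above 0 and Elovl5 was called. Genes above 0 numbered 3 without the second Sox9-null YAP library and 2 without the second Sox9-null Mst library. Between the experiments, the changes of the Sox9-heterozygous groups against their controls differed past the threshold in none of the 32 genes (0.122% of all tested genes called higher and 0.0749% lower), with 2, Mvd and Elovl6, higher in the Mst experiment at an unadjusted p under 0.05 (log2 differences of 1.26 ± 0.34 and 1.64 ± 0.58, limma, adjusted p = 0.248 and 0.449).

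**Figure D5:**
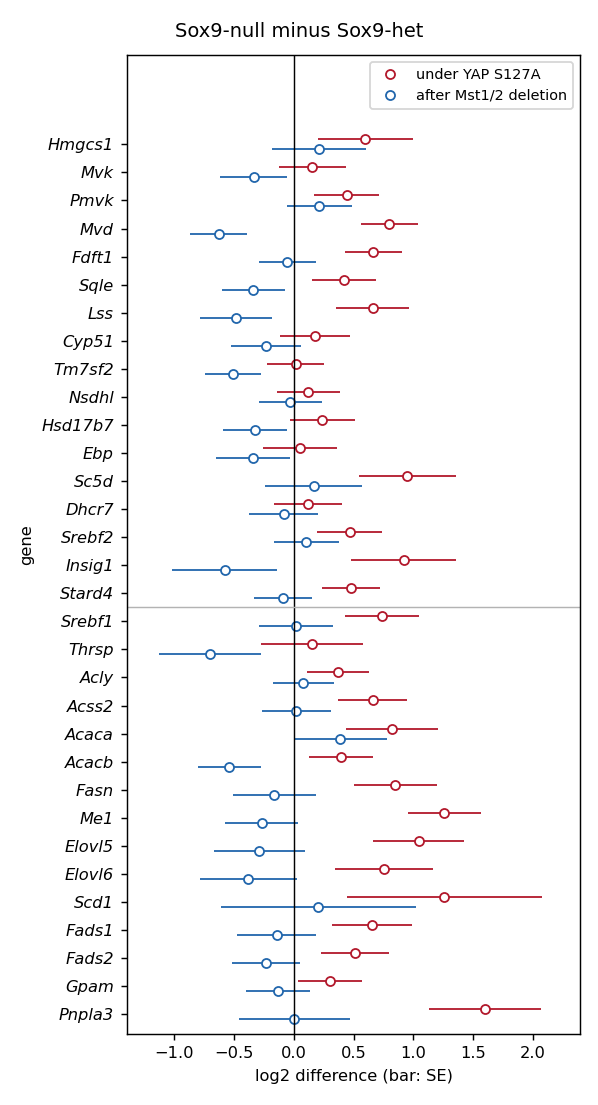
Log2 change of each of the 32 genes in the Sox9-null group minus the Sox9-heterozygous group, in the YAP experiment and in the Mst experiment. Bars are standard errors from limma. All 32 YAP points are above 0 and 22 Mst points are below 0; no point has an adjusted p under 0.05.

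In 4 of the 6 groups, 1 library was the higher one for 23 or more of the 32 genes. In the Sox9-null YAP group the second library was the higher one for 27 of the 32 genes, against 52.2% of all tested genes, and in the wild type control the second library was higher for 26 of 32, against 50.4%. In the Sox9-heterozygous YAP group the first library was higher for 24 of 32, against 59.1%, and in the Sox9-null Mst group the first for 23 of 32, against 57.1%. The second library was higher for 19 of 32 genes in the Sox9-heterozygous Mst group, close to the 57.9% of all tested genes, and for 19 of 32 in the floxed control, against 48.7%. The median of the list above the wild type mean was 0.26 in the first and -0.11 in the second Sox9-heterozygous YAP library on the log2 scale.

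Other genes of these pathways were counted from lists outside the 32, over both experiments, where 12.3% of all tested genes rose and 1.49% fell. Of 17 further sterol genes past the filter 3 rose (limma, adjusted p under 0.05), among them Npc2 by a log2 change of 0.65 ± 0.15 and Scarb1 by 0.68 ± 0.19 (adjusted p = 0.007 and 0.0284). Npc2 moves cholesterol out of lysosomes, and Scarb1 is the receptor for high-density lipoprotein. Of 10 genes for SREBP processing, Scap, Insig2 and the site proteases Mbtps1 and Mbtps2 among them, none passed by limma, with 0 higher and 1 lower at an unadjusted p under 0.05. Npc2 missed the threshold without the first floxed control library (0.58). Scarb1 missed it without the first wild type library (0.40), either floxed control library (0.71, 0.65), the first Sox9-heterozygous YAP library (0.62) or either Sox9-null YAP library (0.67, 0.69).

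Of 25 further fatty acid genes 5 rose over both experiments, against the 12.3% of all tested genes, and none fell. Fads3, a desaturase of sphingoid bases, was at 7.88 and 8.72 log2 CPM in the Sox9-null YAP libraries and at 7.30 and 6.05 in the Sox9-heterozygous YAP libraries, against 2.88 in both wild type libraries. Among Mst libraries Fads3 was at 7.56 and 7.32 log2 CPM with Sox9-null and at 6.62 and 7.33 with Sox9-heterozygous genotype, against 3.12 and 2.67 in the floxed control. No activated library came near a control, and the log2 change over both experiments was 4.46 ± 0.23 (limma, adjusted p = 4.79e-09). Scd2, the desaturase copy used mainly outside the adult liver, was at 4.72 and 5.80 log2 CPM in the Sox9-null YAP libraries and at 3.89 and 3.86 in the Sox9-heterozygous YAP libraries, against 2.64 and 2.62 in the wild type control. Its Mst values were 3.21 and 4.39 log2 CPM with Sox9-null and 3.41 and 2.82 with Sox9-heterozygous genotype, against 2.89 and 2.35 in the floxed control, which the Sox9-heterozygous Mst libraries overlapped. Scd2 rose by a log2 change of 2.63 ± 0.41 in the Sox9-null YAP group and by 1.39 ± 0.25 over both experiments (limma, adjusted p = 0.000785 and 0.00123), while its change of 1.18 ± 0.41 in the Sox9-null Mst group did not pass (adjusted p = 0.0956). Elovl7, an elongase, rose by 1.62 ± 0.20, Elovl1 by 0.86 ± 0.14 and Fads6 by 0.94 ± 0.16 (adjusted p = 5.74e-05, 0.000425 and 0.000962). These 5 calls held under each single left-out library. In the Sox9-null Mst group Elovl3 fell by 2.96 ± 0.72 on the log2 scale and Pgd, of the NADPH-making pentose phosphate pathway, rose by 1.0 ± 0.24 (limma, adjusted p = 0.0173 and 0.0175). Elovl3 missed the threshold without the first floxed control library (-2.71) or the first Sox9-null Mst library (-2.15), and Pgd without the first floxed control library (0.84) or either Sox9-null Mst library (0.94, 1.06).

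Of 17 triglyceride genes 1, Lpin1, passed over both experiments, with a log2 change of -1.56 ± 0.24 (limma, adjusted p = 0.00029). Lpin1, a phosphatidate phosphatase and fasting-responsive coactivator, was at 6.96 and 6.73 log2 CPM in the Sox9-null YAP libraries and at 7.67 and 9.17 in the Sox9-heterozygous YAP libraries, against 7.48 and 8.35 in the wild type control. With Mst1 and Mst2 floxed, Lpin1 was at 5.45 and 5.06 log2 CPM with Sox9-null and at 4.73 and 5.14 with Sox9-heterozygous genotype, against 7.95 and 7.93 in the floxed control. The 4 activated Mst libraries were the lowest of the 12. Of 17 genes tied to LXR and ChREBP, Mylip rose by a log2 change of 1.55 ± 0.42 and Mlx fell by 0.47 ± 0.14 on the log2 scale over both experiments (limma, adjusted p = 0.0205 and 0.0393). Mylip missed the threshold without the first wild type library (1.36), the first floxed control library (1.21) or the first Sox9-heterozygous YAP library (1.45). Mlx passed without the second wild type, the second Sox9-heterozygous YAP or the first Sox9-heterozygous Mst library and missed it without any of the other 9.

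Markers of some other cells moved with activation beside all these genes. Over both experiments 12.3% of all tested genes rose and 1.49% fell. The labelled cell type had its markers: 8 hepatocyte genes summed to 56713 to 94141 CPM over the 12 libraries. Of these 8, Ttr and Tat fell over both experiments, Ttr with a log2 change of -1.12 ± 0.26 (limma, adjusted p = 0.00755), and the other 6, Alb and Hnf4a among them, did not pass. The 16 endothelial markers summed to 206 to 412 CPM in the Sox9-null YAP libraries and 141 to 231 CPM in the Sox9-heterozygous YAP libraries, against 35.5 to 103 CPM in the wild type control. They summed to 468 to 497 CPM in the Sox9-null Mst libraries and 450 to 564 CPM in the Sox9-heterozygous Mst libraries, against 58.3 to 58.5 CPM in the floxed control. Of 15 endothelial markers past the filter 14 rose over both experiments, and Emcn was under a log2 of 1 in every library. The 12 cholangiocyte markers summed to 1454 to 1597 CPM in the Sox9-null YAP libraries and 1937 to 2570 CPM in the Sox9-heterozygous YAP libraries, against 249 to 474 CPM in the wild type control. In the Mst experiment they summed to 3965 to 4059 CPM with Sox9-null and 3362 to 3442 CPM with Sox9-heterozygous genotype, against 313 to 349 CPM in the floxed control, while Krt7, Cftr and Sctr were under a log2 of 1 in every library. In every activated library most of this sum was Spp1. Without Spp1 the other 11 summed to 316 to 353 CPM in the Sox9-null YAP libraries and 179 to 261 CPM in the Sox9-heterozygous YAP libraries, against 139 to 189 CPM in the wild type control, and to 377 to 404 CPM in the Sox9-null Mst libraries and 339.7 to 353 CPM in the Sox9-heterozygous Mst libraries, against 148 to 174 CPM in the floxed control. Krt19 was at 1.53 log2 CPM in the first Sox9-heterozygous YAP library and under 1 in the other 11. Of 8 cholangiocyte markers past the filter 4 rose over both experiments, Spp1, Aqp1 and Pkhd1 among them, and Epcam, a marker used in the sort, had a log2 change of 0.70 ± 0.25 that did not pass (limma, adjusted p = 0.0784). Epcam was at 1.51 and 1.92 log2 CPM in the Sox9-null YAP libraries and at 3.14 and 2.14 in the Sox9-heterozygous YAP libraries, against 0.83 in both wild type libraries, and at 0.82 to 1.05 in the activated Mst libraries, against 0.83 in both floxed control libraries. Markers of T and NK cells and of B cells were under a log2 of 1 in every library. The 12 macrophage markers summed to 61.9 to 76.2 CPM in the Sox9-null YAP libraries and 39.1 to 47.6 CPM in the Sox9-heterozygous YAP libraries, against 24.6 to 69.1 CPM in the wild type control. They summed to 64.5 to 249.7 CPM in the Sox9-null Mst libraries and 46.2 to 134 CPM in the Sox9-heterozygous Mst libraries, against 31.7 to 44.6 CPM in the floxed control. The 11 stellate cell markers summed to 38.0 to 75.3 CPM in the Sox9-null YAP libraries and 43.3 to 63.4 CPM in the Sox9-heterozygous YAP libraries, against 38.1 to 52.0 CPM in the wild type control, and to 92.8 to 105 CPM in the Sox9-null Mst libraries and 66.5 to 76.1 CPM in the Sox9-heterozygous Mst libraries, against 41.9 to 47.0 CPM in the floxed control. Of the markers past the filter, 2 of 10 for macrophages (Cd68, Csf1r) and 2 of 7 for stellate cells (Rgs5, Dcn) rose over both experiments. As shares, both lie above the 12.3% of all tested genes that rose, though each rests on 2 genes. The part of these cells in the results was not tested. In bulk libraries, more or fewer cells of a type and more or less RNA per cell cannot be told apart.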

How the data were processed

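RNA of sorted hepatocytes was isolated with an RNAqueous Micro kit and read with the Ion AmpliSeq Transcriptome Mouse panel, 1 amplicon per gene, on an Ion GeneStudio S5 Plus, per the labels' protocols. The authors deposited 1 table of log2 CPM values for 16116 genes in 12 libraries. The aligner and the genome build are not stated in the sources at hand. Nor are the steps that set the control means and the Mst library means equal and apparently rescaled the deviations. Raw counts were not used here, so depth is unknown and no counting interval is given.

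Genes that reached a log2 of 1 in 2 or more libraries (10681) were fitted with limma 3.58.1 in R 4.3.3 (means of 6 groups over 12 libraries, trend in the prior variance, two-sided tests, Benjamini-Hochberg adjustment over these genes, calls at an adjusted p under 0.05), for 10 comparisons. With 2 libraries a group the spread is shared over all groups. Values are log2 as deposited with no further pseudocount, and folds of low genes are understated if the authors added one. Tables were made with Python 3.11.15, pandas 2.3.3 and numpy 2.4.6, and figures with matplotlib 3.10.9. The fit was tested on simulated data with independent libraries. These lacked the ties between libraries described above, so the test does not check SEs and p-values under such ties. Named in full were 8 genes set by role (Srebf1, Srebf2, Insig1, Hmgcs1, Sqle, Acaca, Fasn, Scd1), every gene of the list with an adjusted p under 0.05 in any comparison, and the 2 highest and 2 lowest changes of each of the 6 comparisons of 2 groups among genes with a mean of at least 4 in the higher group. The genes and lists were chosen with earlier results of these data known. Promoter windows are RefSeq's on GRCm38.p6. Alternatives were 2 other scalings, log2(CPM + 1), other filters, no variance trend, 1 experiment alone, a replicate block, single left-out libraries and, chosen after seeing the data, deviations before rescaling. A few genes of these lists are not reported here.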

Additional observations from a re-analysis of the deposited data

Results flagged for a closer look

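Lpin1, a phosphatidate phosphatase of the triglyceride list, differed between the experiments in its response with 1 intact Sox9 allele. Its log2 change against the GFP control was -3.0 ± 0.39 in the Sox9-heterozygous Mst group (limma, adjusted p = 0.000212) and 0.51 ± 0.39 in the Sox9-heterozygous YAP group (adjusted p = 0.738). The difference, Mst minus YAP, was -3.51 ± 0.55 (limma interaction, adjusted p = 0.0274). It missed the threshold without the first wild type library (-3.07, adjusted p = 0.148), the second Sox9-heterozygous YAP library (-2.76, 0.0501), either floxed control library (-3.50 and -3.52, 0.0591 and 0.0552) or the second Sox9-heterozygous Mst library (-3.71, 0.068), with no filter (0.305) and with no variance trend (0.126).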

How the results depend on the processing

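Counts of the 32 genes called depended on the processing. For the Sox9-null YAP group the count was 6, against 2 with library medians equalised, 2 with quantile normalization, 0 with no filter, 3 with no variance trend, 3 with 1 experiment alone and 0 to 9 with 1 library left out. For the Sox9-null Mst group it was 1, against 2 with no variance trend, 3 with 1 experiment alone and 0 to 4 with 1 library left out. For the Sox9-heterozygous Mst group it was 2, against 1 with library medians equalised, 1 with quantile normalization, 1 with no filter, 1 with no variance trend and 0 to 3 with 1 library left out. For activation over both experiments it was 8, against 5 with library medians equalised, 4 with quantile normalization, 4 with no filter and 4 to 10 with 1 library left out. Leaving out 1 library gave 0 to 1 for the Sox9-heterozygous YAP group, 0 to 2 between the YAP groups, 0 to 1 for the second Sox9 allele over both experiments and 0 to 1 for its difference between them. The alternative log2(CPM + 1) and the filter of log2 at least 3 moved no count by over 1.5 times.

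With deviations before rescaling, chosen after seeing the data, the counts were 18 for the Sox9-null and 3 for the Sox9-heterozygous YAP group (2960 and 1237 of all 10681 genes), 7 between the YAP groups (476), 8 for the Sox9-null and 10 for the Sox9-heterozygous Mst group (2815 and 2118), 2 for the second allele over both experiments (836), 14 for activation (3842), 3 for the difference of Sox9-heterozygous groups (636) and 3 for that of the second allele (63). The smaller spread is that alternative's own construction, and its size rests on values assumed to have first had 2 decimals. Of 15 group pairs, 0 had a correlation of deviations over 0.1 between same-numbered libraries (from -0.644 to 0.0915). In the Mst experiment such a correlation cannot show pairing, because its first and second libraries had nearly equal means gene by gene. With the replicate block the count for the Sox9-null Mst group was 3 in place of 1, and other counts stayed within 1.5 times. Of the 65 changes of single genes recomputed with 1 library left out, 3 turned sign, none of them called: Ebp in the Sox9-null YAP group (-0.41 to 0.055), Scd1 in the Sox9-heterozygous YAP group (-0.20 to 2.81) and Pmvk between the Mst groups (-0.0045 to 0.43). Causes were not tested. Depth is unknown, so no counting interval can be given for low genes such as Pnpla3.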

Other observations

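Genes that follow fasting or the clock were counted as well, since the fatty acid branch is known to follow feeding. Of all tested genes, 12.3% rose and 1.49% fell over both experiments. Of 15 fasting genes 2 rose over both experiments (limma, adjusted p under 0.05), Ppargc1a, a coactivator of gluconeogenic genes, by a log2 change of 1.14 ± 0.16 and Fgf21, a fasting hormone, by 1.40 ± 0.35 (adjusted p = 0.000147 and 0.0132), and 1, Tat, fell. Of 16 clock genes 1 rose, Bhlhe40, a repressor, by 0.76 ± 0.19 (adjusted p = 0.0138), and none fell. Of 15 pericentral genes 7 fell and none rose, with a median log2 change of -0.91. The glutamine synthetase gene Glul fell by 2.29 ± 0.20 on the log2 scale (adjusted p = 9.69e-07). Of 13 periportal genes 1 rose and 2 fell, with a median of -0.29. These counts were not repeated without single libraries, and their part in the results on lipid genes was not tested.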
